A study of Mus musculus with 2 samples.

Results

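The 8 genes described here are the chains of the high-affinity IgE receptor (Fcer1a, Ms4a2 and Fcer1g), the beta and alpha chains of the interleukin-3 (IL-3) receptor family (Csf2rb, Csf2rb2, Il3ra and Csf2ra) and the interleukin-33 (IL-33) receptor Il1rl1. They were chosen by symbol, and all 8 were found once among the 31053 genes of the files. Each was measured in 2 single-cell RNA sequencing libraries of mouse AE9a leukemia, an acute myeloid leukemia model driven by a truncated AML1-ETO fusion that is carried by a retrovirus together with GFP. The comparison asks how these receptors differ after the oil and the tamoxifen treatment of leukemic mice.

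Both libraries came from leukemia cells of the genotype Usp18+/f with UBCER-Cre, a Cre recombinase under the ubiquitin C promoter that tamoxifen activates. The protein Usp18 dampens the response of a cell to interferon, and 1 allele of the gene is flanked by loxP sites in these cells. The leukemia cells had been raised from transduced fetal liver cells and passed on to adult, sublethally irradiated C57BL/6 recipients of both sexes, which were wild type themselves. Once sick, recipients received oil (labelled Usp18+/f) or tamoxifen (labelled Usp18+/Δ), so tamoxifen, Cre activity and the allele cannot be told apart. GFP+ Lin− c-Kit+ splenocytes were sorted 3 days after the first injection, and cells of 3 mice were pooled per library. There is thus 1 library per group, no test was run, and every interval below is a 95% interval for counting error only. Values are given for the library labelled Usp18+/f first and for the library labelled Usp18+/Δ second, and each log2 ratio is the second over the first.

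The high-affinity IgE receptor consists of an alpha chain that binds IgE, a beta chain that amplifies the signal and a pair of gamma chains that carry the activation motifs, and it arms mast cells and basophils. Receptors for IL-3 and for granulocyte-macrophage colony-stimulating factor (GM-CSF) share a beta chain and differ in the alpha chain that recognises the cytokine. Mice carry an additional beta chain, encoded by Csf2rb2, which serves IL-3 alone. Il1rl1, also known as ST2, pairs with Il1rap to sense IL-33 and is a characteristic receptor of mast cells and basophils.

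The filters kept 6561 and 7073 cells, which held 58184095 and 59440157 UMIs (unique molecular identifiers, counts of captured RNA molecules) and a median of 8575 and 8021 UMIs per cell. A total of 15 barcodes, 11 of them among the kept cells, occurred in both libraries. The label was checked on Usp18 itself, which had 5.69 CPM (UMIs per 1000000 UMIs of the kept cells) and 24.1 CPM, a log2 ratio of 2.08 (1.91 to 2.26), so its RNA went against the label. The UMI counts do not separate the deleted from the intact allele, and Usp18 is itself induced by interferon and stands on the interferon-stimulated gene list, of which 37 of the 43 genes compared were higher. Isg15, an interferon-induced gene, had 21.1 and 115 CPM, a log2 ratio of 2.45 (2.36 to 2.54). Kit, used for the sort, had 96.6 and 102 CPM. Among marker lists, mast cell genes summed to 577 and 751 CPM, most of it Cma1 (460 and 542 CPM) and Cpa3 (101 and 190 CPM). Basophil genes summed to 132 and 135 CPM, nearly all of it Cd200r3 (129 and 132 CPM), with Mcpt8 at 2.94 and 2.59 CPM and Prss34 at 0.309 and 0.421 CPM. Neutrophil genes summed to 0.0344 and 22.5 CPM with Retnlg at 0 in both. Macrophage or monocyte genes summed to 25.6 and 32.0 CPM, most of it Ccr2 (21.8 and 24.6 CPM). C1qa was at 0.69 and 1.78 CPM, C1qb at 0.69 and 1.83 CPM and C1qc at 0.498 and 1.51 CPM, whereas Cd68 was at 1.74 and 1.68 CPM. T or NK cell genes summed to 7.22 and 17.4 CPM, nearly all of it Nkg7 (7.13 and 17.4 CPM), with Cd3d, Cd8a and Cd4 at 0, Cd3e at 2 and 0 UMIs and Cd3g at 3 and 0 UMIs. Erythroid genes summed to 6771 and 6947 CPM, stem or progenitor genes to 103 and 119 CPM, and B cell, megakaryocyte, endothelial, dendritic cell and eosinophil genes to at most 3.16 CPM each. Most of the stem or progenitor sum was Kit, with Cd34 at 6.14 and 16.3 CPM and Hoxa9 and Elane at 0 in both.

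To place the members in the genome, coordinates were taken from the mm10 annotation. Fcer1a lies at chr1:173221284-173227214, Fcer1g at chr1:171229572-171234365, both on the minus strand, and Il1rl1 at chr1:40429570-40465415 on the plus strand. Ms4a2 lies at chr19:11615523-11623719 and Csf2ra at chr19:61223957-61228429, both on the minus strand, and Il3ra at chr14:14346275-14356011 on the plus strand. Csf2rb2 (chr15:78282507-78305721, minus strand) and Csf2rb (chr15:78325752-78353847, plus strand) are divergent neighbours 20030 bases apart.

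Csf2rb and Csf2rb2 are copies of each other, and reads of such genes can be split or lost in counting. Their coding sequences were identical at 95.2% of 2628 aligned bases, and 26.2% of the runs of 50 bases in the Csf2rb coding sequence also occurred in the Csf2rb2 transcript. The libraries were made from the 3′ end, where the last 500 bases of the transcripts were identical at only 86.2% of 464 aligned bases and shared no run of 50 bases. Their last coding stretch aligned without a gap, coding bases 2545 to 2634 of both genes in the GENCODE transcripts, shows how close they are, with the 6 differing bases of 90 in capitals.
Csf2rb: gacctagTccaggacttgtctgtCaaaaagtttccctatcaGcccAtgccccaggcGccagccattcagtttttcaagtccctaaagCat
Csf2rb2: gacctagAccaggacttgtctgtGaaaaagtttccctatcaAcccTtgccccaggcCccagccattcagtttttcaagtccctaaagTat
Counts of both genes are reported as deposited, and how the counting treated reads that match both copies was not tested.

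The 250 bases before the start are shown for the 4 best detected members that have an entry in the RefSeq promoter table (GRCm38.p6). Capitals mark matches to AGATAA or TGATAA on either strand, motifs of the GATA factors, whose members Gata1 (142 and 134 CPM) and Gata2 (204 and 185 CPM) were well detected.
Fcer1a, chr1:173227230-173227479, minus strand: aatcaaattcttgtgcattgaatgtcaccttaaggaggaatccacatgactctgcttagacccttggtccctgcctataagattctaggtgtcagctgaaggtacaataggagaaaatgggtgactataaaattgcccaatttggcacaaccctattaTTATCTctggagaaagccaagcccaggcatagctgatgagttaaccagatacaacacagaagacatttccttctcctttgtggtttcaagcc
Ms4a2, chr19:11623720-11623969, minus strand: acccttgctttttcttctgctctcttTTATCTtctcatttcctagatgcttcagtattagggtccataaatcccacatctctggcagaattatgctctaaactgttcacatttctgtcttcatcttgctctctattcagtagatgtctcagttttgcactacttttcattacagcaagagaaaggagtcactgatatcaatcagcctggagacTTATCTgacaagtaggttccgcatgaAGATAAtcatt
Csf2rb2, chr15:78305722-78305971, minus strand: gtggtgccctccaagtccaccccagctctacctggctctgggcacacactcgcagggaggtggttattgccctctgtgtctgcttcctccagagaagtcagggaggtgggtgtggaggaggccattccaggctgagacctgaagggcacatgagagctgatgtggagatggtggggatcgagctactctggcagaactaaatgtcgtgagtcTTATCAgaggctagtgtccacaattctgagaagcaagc
Il1rl1, chr1:40429320-40429569, plus strand: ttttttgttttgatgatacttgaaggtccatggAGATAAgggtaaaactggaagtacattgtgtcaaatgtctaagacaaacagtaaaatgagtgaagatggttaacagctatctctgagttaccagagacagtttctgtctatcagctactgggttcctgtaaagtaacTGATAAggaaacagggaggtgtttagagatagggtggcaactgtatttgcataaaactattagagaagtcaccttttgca
There was 1 match for Fcer1a, 3 for Ms4a2, 1 for Csf2rb2 and 2 for Il1rl1, none overlapping. The windows of Fcer1g, Il3ra and Csf2ra held none. Il1rl1 has another start 10059 bases downstream, whose window held 1 match. Of all 32851 windows in the table, 16.6% held at least 1 match and 2.72% at least 2. An interferon response motif (GAAA, 2 bases of any kind, GAAA, on either strand), found in 2.98% of all windows, was in no window of these 7 genes. A match is a description of the letters and not of binding.

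The levels of the members spanned almost 3 orders of magnitude. UMIs count the 3′ ends of transcripts and do not scale with gene length, but capture can differ between genes, so the order of genes is approximate. In the library labelled Usp18+/f the order ran from Il1rl1 (568 CPM) over Ms4a2 (514), Csf2rb (210), Fcer1a (174), Csf2rb2 (31.5) and Csf2ra (7.94) to Il3ra (0.825) and Fcer1g (0.705), whose intervals overlapped. The order was similar in the library labelled Usp18+/Δ, except that Fcer1a (265) and Csf2rb (264) had overlapping intervals there and Fcer1g (1.92) stood above Il3ra (0.824). Of the 8 members, 6 reached the mean of 5 CPM required for the comparison of all genes.

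**Figure D1:**
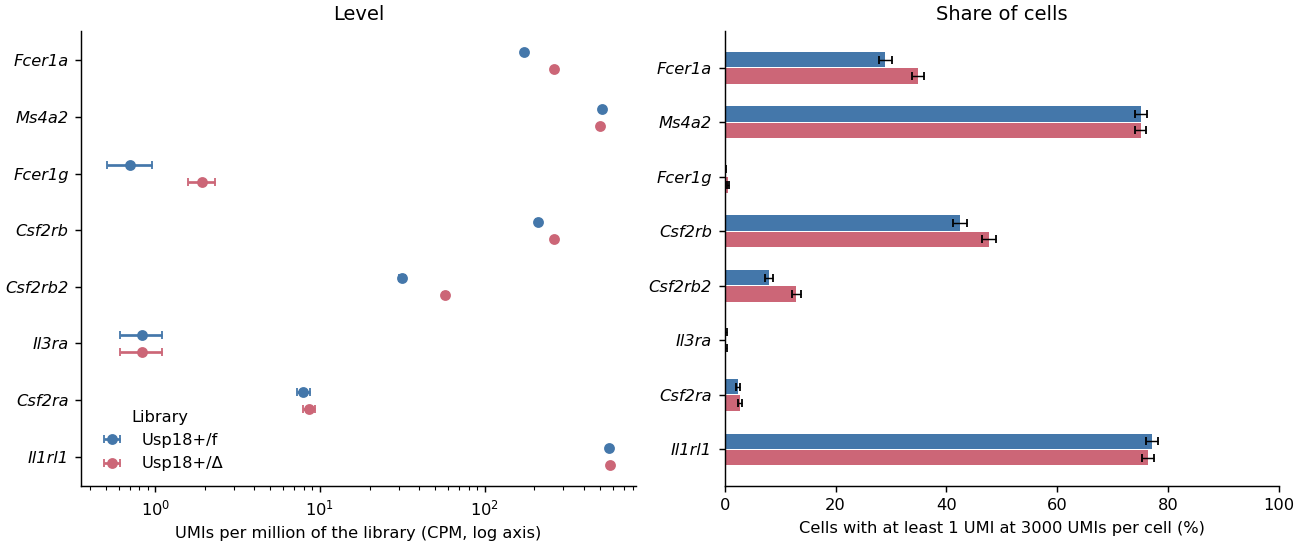
Left, the level of each gene in CPM on a log axis, and right, the share of cells with at least 1 UMI after every cell was thinned to 3000 UMIs, in the libraries labelled Usp18+/f (blue) and Usp18+/Δ (red), with 95% counting intervals. Fcer1a, Csf2rb and Csf2rb2 have their higher value under the label Usp18+/Δ in both panels, Ms4a2 and Il1rl1 are nearly level, and Fcer1g and Il3ra lie near or below 2 CPM.

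A gene is called higher or lower here where one level exceeded the other by at least 25%, a log2 ratio of 0.32 in size. By this limit Fcer1a, Csf2rb and Csf2rb2 were called higher under the label Usp18+/Δ, and 0 of the 6 members were called lower. Csf2rb was no longer called with all deposited barcodes (0.31), with doublets kept (0.31), with median-of-ratios size factors, after thinning (0.26), with equal cluster shares (0.059) or without cluster 5 (0.26), and Csf2rb2 not with equal cluster shares (0.15). Of all 8879 genes that reached 5 CPM, 3.51% were called higher and 1.1% lower. With a limit of 50%, Fcer1a and Csf2rb2 were called higher, against 1.18% of all genes higher and 0.169% lower. The median log2 ratio was 0.22 over the 6 members and 0.0080 over all genes. The fold of Csf2rb, 1.26, stands just inside the limit of 25%, and that of Csf2ra, 1.08, is the nearest member outside it.

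The IgE receptor chains differed among themselves. Fcer1a, the IgE-binding chain, had 10128 UMIs or 174 CPM (171 to 178) and 15739 UMIs or 265 CPM (261 to 269). Its log2 ratio was 0.61 (0.57 to 0.64), and its intervals did not overlap between the libraries. Ms4a2, the signal-amplifying beta chain, had 514 CPM (509 to 520) and 505 CPM (499 to 511), a log2 ratio of -0.026 (-0.049 to -0.0031), which is a difference of less than 2%. Fcer1g, the signaling gamma chain, was near absent, with 41 UMIs in 22 cells and 114 UMIs in 72 cells. That is 0.705 CPM (0.506 to 0.956) and 1.92 CPM (1.58 to 2.30), a log2 ratio of 1.45 (0.92 to 1.997).

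The shares of cells followed the levels. At 3000 UMIs per cell, which left 6104 and 6723 cells, 29.0% (27.8 to 30.1) and 34.8% (33.7 to 36.0) of cells held a UMI of Fcer1a. Ms4a2 was found in 75.2% and 75.1% of these cells, and Fcer1g in 0.164% (0.0786 to 0.301) and 0.506% (0.351 to 0.706). Without thinning the shares were 47.7% and 54.5% for Fcer1a, 93.5% and 94.2% for Ms4a2, and 0.335% and 1.02% for Fcer1g. Since none of the clusters described below holds cells known to be free of these transcripts, the share that free RNA alone would give was not measured.

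Transcripts of the complete IgE receptor were detected together in few cells, at a share that depends on the depth per cell. Fcer1a and Ms4a2 were found together in 1420 of 6104 cells, 23.3% (22.2 to 24.3), and 1845 of 6723 cells, 27.4% (26.4 to 28.5). All 3 chains were found in 2 cells, 0.0328% (0.0040 to 0.118), and 8 cells, 0.119% (0.0514 to 0.234). Without thinning, 46.1% and 52.0% of cells held Fcer1a and Ms4a2, and 13 of 6561 and 40 of 7073 cells, 0.198% and 0.566%, held all 3. Of the cells with Fcer1a, 0.113% and 0.470% had an Fcer1g UMI, against 0.185% and 0.525% of the cells without it. These shares rest on 2 and 11 cells with both genes, and the intervals of the cells with Fcer1a, 0.0137% to 0.408% and 0.235% to 0.839%, include those without it. The share with all 3 chains had a log2 ratio of 1.86 (-0.20 to 3.92), whose interval includes 0.

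A large part of the few Fcer1g UMIs lay in a small cluster with other myeloid genes. Cluster 8, whose leading genes were S100a9, S100a8, Camp, Lcn2 and Ngp, followed by C1qa and C1qb, held 8 and 45 cells and 51.2% and 51.8% of the Fcer1g UMIs. Its sizes are not compared, since genes that lead it differed between the libraries. Fcer1g was at 245 CPM and 137 CPM there, and at 0.344 and 0.932 CPM in all other cells. Among the 22 and 72 cells with Fcer1g, 18 and 59 had a single UMI, and 1 cell held 24.4% and 15.8% of all Fcer1g UMIs. The complement genes C1qa, C1qb and C1qc, known from macrophages, were found in 5 of these 22 and 27 of these 72 cells, against 27 of 6561 and 147 of 7073 kept cells. Cluster 8 also had Ms4a2 at 514 and 432 CPM and Kit at 93.4 and 95.3 CPM, next to 514 and 505 CPM and 96.6 and 102 CPM in all kept cells. Whether doublets or free RNA take part in these cells was not tested. When every cluster was given the same share of cells in both libraries, Fcer1g was at 1.51 and 1.51 CPM, a log2 ratio of -0.0054. That value is weighted by cluster 8, where the log2 ratio was -0.84 (-1.58 to -0.046) on 21 and 59 UMIs. The cells of cluster 8 were unlike between the libraries, with S100a8 at 0 and 727 CPM and a C1q UMI in 8 of 8 and 38 of 45 cells. Without cluster 8 the log2 ratio was 1.44 (0.68 to 2.25), and it was above 0 in each of clusters 0 to 6, on 1 to 13 UMIs per library and cluster, with the interval above 0 in 2 of them.

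Both beta chains of the IL-3 receptor family had higher levels after tamoxifen, that is, under the label Usp18+/Δ. Csf2rb, the shared chain, had 12231 UMIs or 210 CPM (207 to 214) and 15704 UMIs or 264 CPM (260 to 268), a log2 ratio of 0.33 (0.30 to 0.36). Csf2rb2, the chain for IL-3 alone, had 1830 UMIs or 31.5 CPM (30.03 to 32.9) and 3440 UMIs or 57.9 CPM (56.0 to 59.8), a log2 ratio of 0.88 (0.80 to 0.96). Of the thinned cells, 42.5% (41.2 to 43.7) and 47.7% (46.5 to 48.9) held Csf2rb and 7.96% (7.30 to 8.67) and 12.9% (12.1 to 13.7) held Csf2rb2. At least 1 of both chains was found in 44.5% and 50.8% of cells. Without thinning, Csf2rb was in 72.0% and 77.3% of cells and Csf2rb2 in 14.0% and 22.4%.

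The alpha chains were scarce. Il3ra, the IL-3 receptor alpha chain, had 48 and 49 UMIs, 0.825 CPM (0.608 to 1.09) and 0.824 CPM (0.610 to 1.09), each in a cell of its own. Its log2 ratio was -0.0011 (-0.61 to 0.60), an interval that includes 0. Csf2ra, the GM-CSF receptor alpha chain, had 462 UMIs or 7.94 CPM (7.23 to 8.70) and 509 UMIs or 8.56 CPM (7.84 to 9.34), a log2 ratio of 0.11 (-0.076 to 0.29) that includes no difference. Thinned cells held Csf2ra in 2.36% and 2.75% of cases and Il3ra in 0.229% and 0.223%. Il5ra, the alpha chain for interleukin-5, had 12 and 18 UMIs. Il3ra together with either beta chain was found in 8 of 6104 and 12 of 6723 thinned cells, and in 40 and 41 kept cells without thinning. Csf2ra together with Csf2rb was found in 66 cells, 1.08% (0.837 to 1.37), and 90 cells, 1.34% (1.08 to 1.64).

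The IL-33 receptor was the most abundant member and nearly level. Il1rl1 had 33054 UMIs or 568 CPM (562 to 574) and 34247 UMIs or 576 CPM (570 to 582), a log2 ratio of 0.020 (-0.0015 to 0.042). It was found in 77.1% and 76.4% of thinned cells. Il1rap, its accessory chain, was at 15.9 CPM (14.9 to 16.9) and 13.4 CPM (12.4 to 14.3), a log2 ratio of -0.25 (-0.39 to -0.11). Both were found together in 3.49% and 3.15% of thinned cells. The counts are per gene, so the membrane and the soluble form of ST2 are not told apart.

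The spread of the UMIs over the cells was read as well. The Fano factor, the variance over the mean of the thinned UMIs, was 3.27 and 4.16 for Fcer1a, 2.89 and 2.69 for Csf2rb and 3.11 and 2.98 for Csf2rb2. It was 1.80 and 2.14 for Il1rl1, 1.36 and 1.37 for Ms4a2 and 1.004 and 1.03 for Csf2ra, against a median of 1.02 and 1.02 over all genes compared. Fewer than 0.4% of these genes lay above Fcer1a, Csf2rb or Csf2rb2, 0.755% and 0.574% lay above Il1rl1 and 1.96% and 2.21% above Ms4a2. The tenth of cells richest in Fcer1a held 64.6% and 61.5% of its thinned UMIs, whereas for Ms4a2 that share was 29.4% and 29.7%. Both measures depend on the level of a gene, and no comparison at matched level was made.

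Co-detection was then examined over the 28 pairs of members, as the number of thinned cells with both genes over the product of the shares. Among the 14 and 17 pairs with at least 20 expected cells, 13 and 15 had more cells with both than the product. The highest values were those of Csf2rb with Csf2rb2, 1.75 and 1.60, and of Fcer1a with Csf2rb2, 1.73 and 1.61. Csf2rb2 was found in 13.9% and 20.5% of the cells with Csf2rb, against 3.56% and 5.89% of the cells without it. These values depended on depth: Csf2rb with Csf2rb2 had 2.53 and 2.18 at 1500 UMIs, 1.43 and 1.40 at 5000 UMIs and 1.254 and 1.159 without thinning, and Fcer1a with Csf2rb2 had 1.96 and 1.91, 1.38 and 1.39, and 1.28 and 1.21. Fcer1a with Ms4a2 had 1.07 and 1.05, and Ms4a2 with Il1rl1, both found in most cells, 1.02 and 1.02. With the product taken within clusters, Csf2rb with Csf2rb2 had 1.15 and 1.14, Fcer1a with Csf2rb2 1.13 and 1.10, and the other pairs of the 5 most abundant members at most 1.08. Fcer1a, Ms4a2, Csf2rb and Il1rl1 were found in the same cell in 10.4% and 13.03% of cells, and these with Csf2rb2 in 2.92% (2.51 to 3.37) and 4.67% (4.18 to 5.20). None of the 8 was found in 3.82% and 3.08%. Without thinning, those 4 were found together in 36.0% and 40.65% of cells, and none of the 8 in 1.37% and 0.198%.

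**Figure D2:**
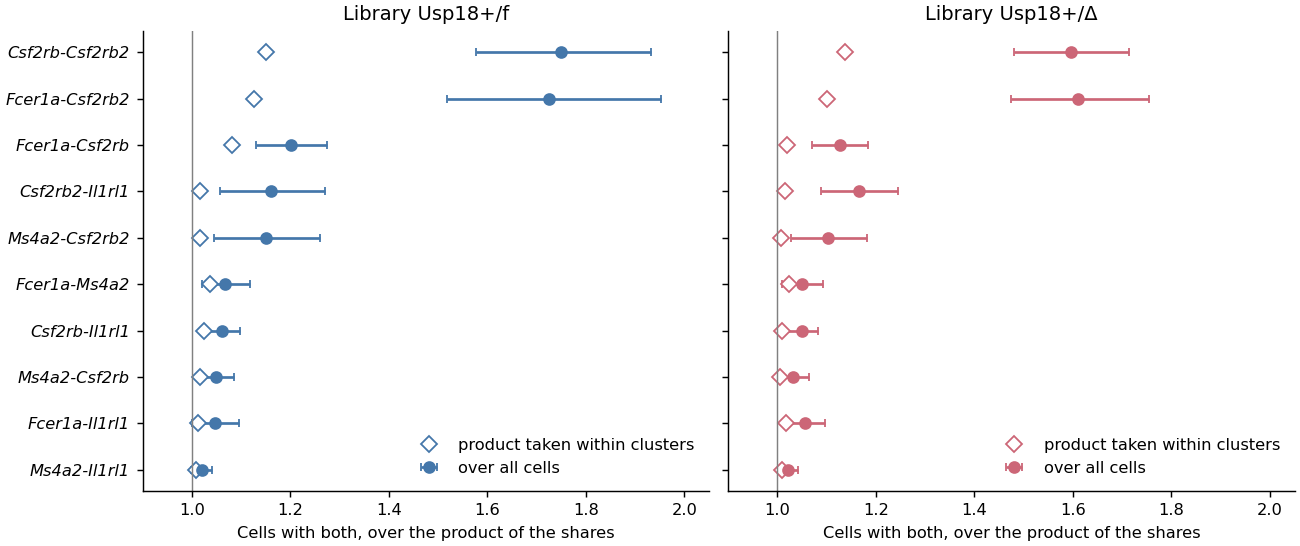
Thinned cells with both genes of a pair over the product of the shares, for the 10 pairs of the 5 most abundant members in each library; filled points with 95% counting intervals take the product over all cells, open diamonds within clusters. The pairs with Csf2rb2 reach 1.75, and within clusters every pair lies between 1.005 and 1.15.

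To find the genes most like each member over cells, the genes that reached 20 CPM, the members themselves left out, were ranked by the smaller Pearson r of both libraries. For Fcer1a these were Cma1 and Cpa3, mast cell proteases (r of 0.33 and 0.42, and 0.32 and 0.39), then Cyp11a1, Lgals3 and Srgn. For Csf2rb2 they were Serpinb1a (0.47 and 0.38), Cma1, Gsn, Lgals3 and Neat1, and for Csf2rb they were Serpinb1a (0.36 and 0.30), Cma1, Gsn, Vim and Neat1. Csf2rb and Csf2rb2 had 0.43 and 0.44 with each other, a higher smaller r than either had with any gene in the ranking. For Ms4a2 they were Malat1 (0.24 and 0.23), Cpa3, Neat1, Ikzf2 and Srgn, with Il1rl1 itself at 0.19 and 0.19, and for Il1rl1 Malat1 (0.31 and 0.36), Neat1, Cpa3, Cd200r3 and Ikzf2. These values describe the thinned cells of each library, which share library and depth, and carry no test.

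All well-detected members peaked in the same cluster. Clustering both libraries without the members, the interferon list and the sex genes among the variable genes gave 9 clusters, of which 8 had at least 100 cells. Cluster 5 was led by Serpinb1a, Tpsg1, Cpa3, Csf2rb2 and Mcpt4, and 3 of the 6 mast cell markers, Cpa3, Mcpt4 and Cma1, were among its 10 leading genes. It held 353 and 927 cells with a median of 4400 UMIs. The sizes are not compared, because Cpa3, Csf2rb2, Mcpt1, Mcpt2 and Fcgr3 among its leading genes differed between the libraries. Il1rl1 was at 1414 CPM in cluster 5, Csf2rb at 999, Fcer1a at 996, Ms4a2 at 848 and Csf2rb2 at 449 CPM. The next was cluster 4, led by Hbb-bt, Trp53inp1, Hba-a2, Hbb-bs and Btg2, with Il1rl1 at 1064, Ms4a2 at 732, Csf2rb at 466, Fcer1a at 282 and Csf2rb2 at 119 CPM. Fcer1a was lowest in the shallow cluster 7 (Rpgrip1 and AY036118) and in cluster 0 (Hist1h1a and Hist1h1b), at 134 CPM in both, and Ms4a2 in cluster 0, at 415 CPM. Csf2rb and Il1rl1 were lowest in cluster 2 (Tspoap1 and Ccnb2), at 146 and 394 CPM. The span from the highest to the lowest cluster was 1.03 on the log2 scale for Ms4a2. Csf2rb2 was at 8.06 CPM (6.75 to 9.56) in cluster 2 and at 4.78 CPM (0.579 to 17.3) in cluster 7, the latter on 2 UMIs. Cluster 5 held 48.1% and 50.6% of all Csf2rb2 UMIs and 5.74% and 10.8% of the Ms4a2 UMIs, next to 2.99% and 6.905% of the UMIs of all genes.

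**Figure D3:**
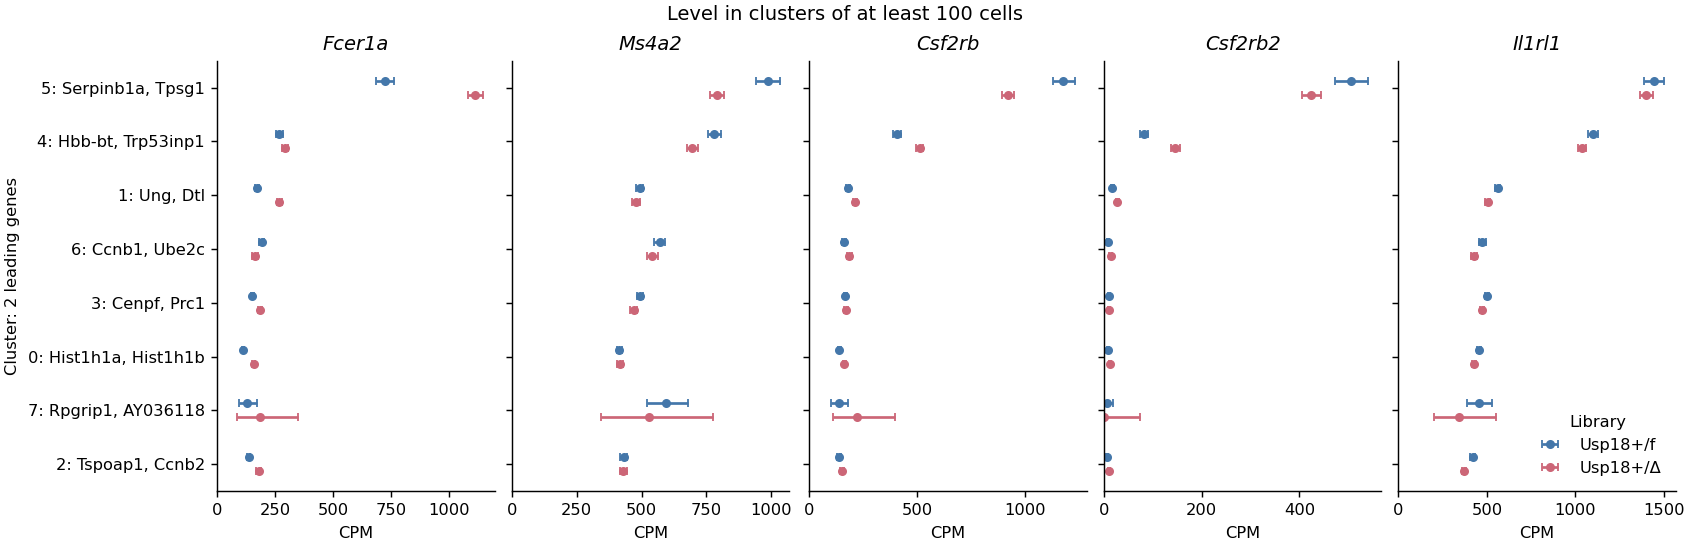
CPM of the 5 most abundant members in the 8 clusters of at least 100 cells, in the libraries labelled Usp18+/f (blue) and Usp18+/Δ (red), with 95% counting intervals; clusters carry their 2 leading genes and are ordered by Csf2rb. All 5 genes are highest in cluster 5, where Fcer1a is at 722 and 1112 CPM and Csf2rb at 1180 and 923 CPM.

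The differences between the libraries were then taken within clusters. Fcer1a was higher in the library labelled Usp18+/Δ in 7 of 8 clusters, with the interval above 0 in 6, and reached 722 and 1112 CPM in cluster 5, a log2 ratio of 0.62 (0.53 to 0.71). The exception was cluster 6 (Ccnb1 and Ube2c), with 191 and 162 CPM, a log2 ratio of -0.24 (-0.38 to -0.10). At resolution 0.4 and with the members among the variable genes Fcer1a was higher in all 5 and all 8 clusters, without exception, and with another seed in 7 of 8. Il1rl1, level over all cells, was lower in all 8 clusters, with log2 ratios of -0.40 to -0.045, with the interval below 0 in 6. It was also lower in every cluster of at least 100 cells in the 3 other clusterings, 5, 8 and 8 of them. Ms4a2 was lower in cluster 5, with 987 and 789 CPM, a log2 ratio of -0.32 (-0.41 to -0.24), and in cluster 4, with 781 and 696 CPM (-0.17, -0.23 to -0.10).

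Csf2rb was higher in the library labelled Usp18+/Δ in 7 clusters and Csf2rb2 in 5, and both were lower in cluster 5. Csf2rb was at 1180 and 923 CPM in cluster 5, a log2 ratio of -0.36 (-0.43 to -0.28), and at 407 and 512 CPM in cluster 4, a log2 ratio of 0.33 (0.25 to 0.41). Csf2rb2 was at 506 and 424 CPM in cluster 5, a log2 ratio of -0.25 (-0.37 to -0.13), and at 82.4 and 146 CPM in cluster 4, a log2 ratio of 0.83 (0.66 to 0.9955). The direction in cluster 5 depended on the clustering. In the cluster with the highest level, the ratio of Csf2rb was 0.065, -0.10 and 0.096 and that of Csf2rb2 0.30, 0.12 and 0.35 at resolution 0.4, with another seed and with the members among the variable genes. No direction is therefore given for the beta chains within the highest cluster.

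With each cluster given the same share of cells in both libraries, Fcer1a was at 188 and 246 CPM, a log2 ratio of 0.39, and was still called higher. Csf2rb was at 236 and 246 CPM, a log2 ratio of 0.059, and Csf2rb2 at 43.6 and 48.2 CPM, a log2 ratio of 0.15, and neither was called. Il1rl1 was at 596 and 551 CPM and Ms4a2 at 528 and 497 CPM, log2 ratios of -0.11 and -0.087. In the 3 other clusterings the ratio was 0.41 to 0.44 for Fcer1a, 0.075 to 0.10 for Csf2rb, 0.21 to 0.31 for Csf2rb2 and -0.12 to -0.11 for Il1rl1. Without cluster 5, Fcer1a had 157 and 202 CPM, a log2 ratio of 0.36, and Csf2rb2 16.8 and 30.7 CPM, a log2 ratio of 0.87, whereas Csf2rb, at 0.26, was no longer called.

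**Figure D4:**
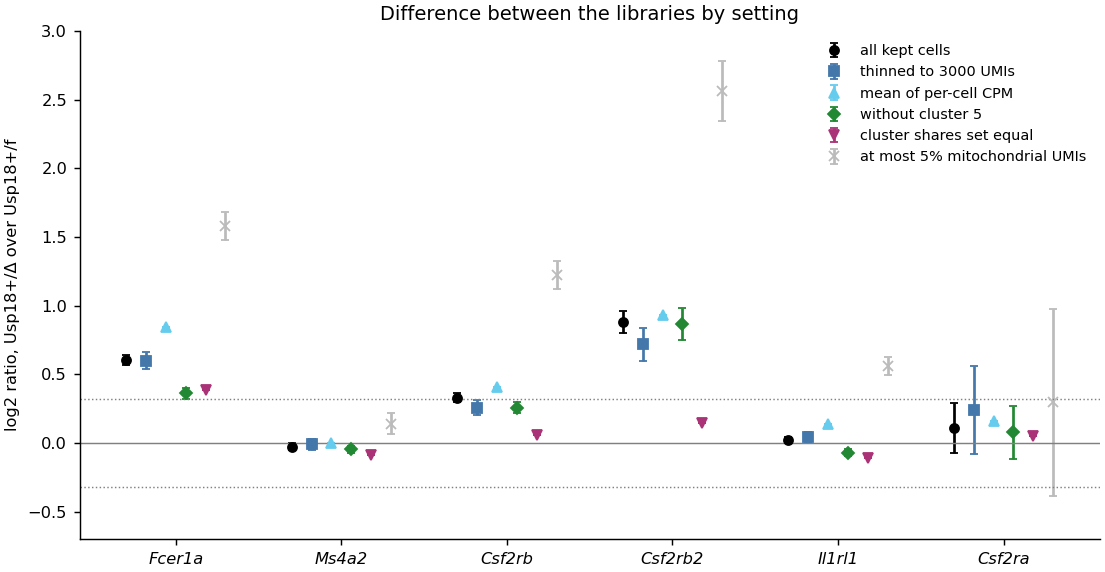
Log2 ratio between the libraries, Usp18+/Δ over Usp18+/f as labelled, for 6 members under 6 settings, with 95% counting intervals where the setting has one; dotted lines mark a difference of 25%. Fcer1a stays above that line in each of these settings, Csf2rb2 lies below it with equal cluster shares, Csf2rb also after thinning and without cluster 5, and the limit of 5% mitochondrial UMIs gives the highest value of every member.

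One filter moved these values far more than the others. With at most 5% mitochondrial UMIs, 1015 and 732 cells remained, of which 3.65% and 35.0% were in cluster 5 and 30.6% and 6.01% in the shallow cluster 7. The log2 ratio was then 1.58 for Fcer1a, 1.23 for Csf2rb, 2.56 for Csf2rb2 and 0.56 for Il1rl1, and 1314 of 8927 genes were called higher and 1219 lower.

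Cell cycle phase and interferon genes were used as further strata of the thinned cells. G1-phase cells, 1434 and 2016, had the highest levels, with Il1rl1 at 988 and 995 CPM, Csf2rb at 460 and 545 and Csf2rb2 at 127 and 182 CPM. In G2M-phase cells these were 481 and 441, 157 and 173, and 9.35 and 13.8 CPM. Of the G1-phase cells 20.4% and 33.5% were in cluster 5, against 0.378% and 0.365% of the G2M-phase cells. The log2 ratio of Fcer1a was 0.60, 0.49 and 0.30 in G1, S and G2M cells, and that of Csf2rb2 0.52, 0.58 and 0.56.

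Cells were also split by the quartiles of their interferon-list UMIs (at most 5, at most 7, at most 10, and more), which held 2700, 1638, 1276 and 490 cells under the label Usp18+/f and 1398, 1310, 1720 and 2295 under the label Usp18+/Δ. The 5 abundant members were higher with each quartile in both libraries. Csf2rb2 went from 20.6 to 78.6 CPM and from 24.95 to 89.2 CPM, and Csf2rb from 181 to 333 CPM and from 187 to 354 CPM. Within quartiles, the libraries differed in Csf2rb by log2 ratios of 0.046, 0.085, -0.016 and 0.087, against 0.30 over the cells of all 4 quartiles. Csf2rb2 differed by 0.28, 0.35, 0.21 and 0.18, each with its interval above 0, against 0.78. Fcer1a kept a higher level in the library labelled Usp18+/Δ in all 4 quartiles, by 0.50, 0.20, 0.18 and 0.38, against 0.52. Ms4a2 and Il1rl1 were lower in all 4, with log2 ratios of -0.15 to -0.11 and of -0.22 to -0.13. Cluster 5 held 3.15% and 4.22% of the cells of the lowest quartile and 12.04% and 18.95% of those of the highest. Clusters 4 and 5 together held 12.4% and 11.6% of the lowest and 35.9% and 43.0% of the highest, and 17.7% and 16.5% and then 40.6% and 46.5% of the cells were in G1. The part that clusters and phase have in these values was not tested.

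**Figure D5:**
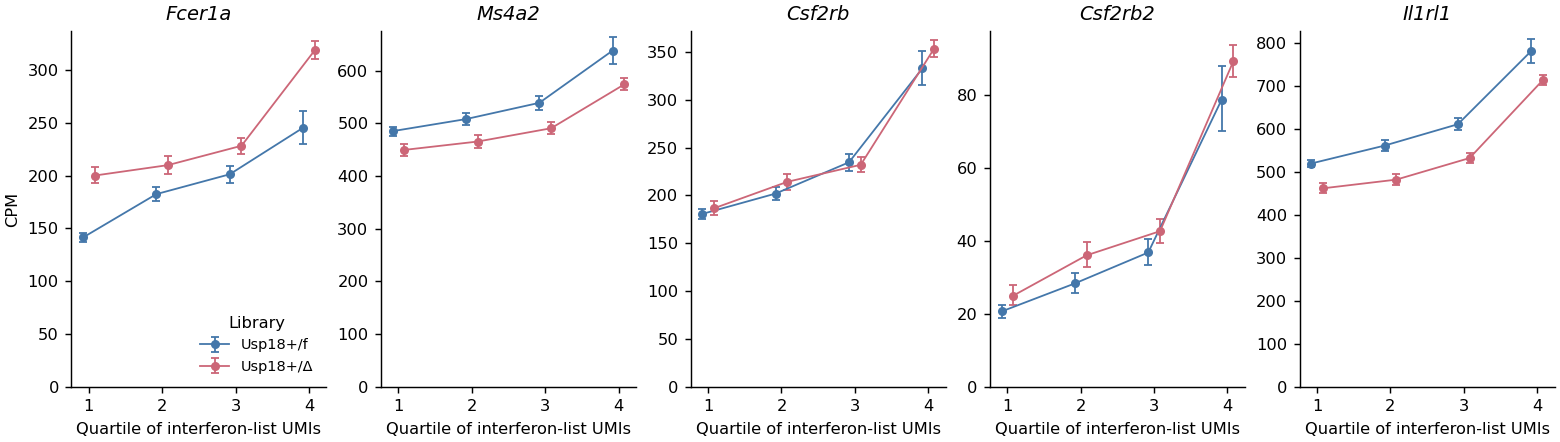
CPM of the 5 most abundant members in cells grouped by quartile of the UMIs of interferon-stimulated genes at 3000 UMIs per cell, in the libraries labelled Usp18+/f (blue) and Usp18+/Δ (red), with 95% counting intervals. Levels are higher in each higher quartile in both libraries, the lines of Csf2rb nearly coincide, those of Fcer1a and Csf2rb2 are higher and those of Ms4a2 and Il1rl1 are lower in the library labelled Usp18+/Δ.

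Genes downstream of the receptors are given beside the share of all genes called, 3.51% higher and 1.1% lower, with 95.4% within the limit. In the IgE receptor signalling list, 22 of 28 genes reached 5 CPM and were compared, 1 was higher and 0 were lower, a share near that of all genes, and the median log2 ratio was 0.079. The called gene was the adaptor Lat2, at 9.26 and 13.6 CPM (0.56, 0.40 to 0.71). The adaptor Grb2 (179 and 187 CPM), the phosphatase Inpp5d (144 and 145 CPM) and the adaptor Lcp2 (121 and 125 CPM) were the most abundant. Among other Fc receptors and partners of Fcer1g, 4 of 9 were compared and 2 were higher, the IgG receptor Fcgr3 at 9.44 and 19.97 CPM (1.08, 0.93 to 1.23) and Clec4e at 5.12 and 10.7 CPM (1.06, 0.86 to 1.26), with a median of 0.61. Fcgr2b, an inhibitory IgG receptor that signals without Fcer1g but stands on the list and in its median, had 23.8 and 26.8 CPM. Fcgr3 was also among the leading genes of cluster 5.

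In the beta common receptor signalling list, 18 of 20 genes were compared, 2 were higher and 0 lower, against 3.51% and 1.1% of all genes, with a median of 0.053. Both are feedback inhibitors of cytokine receptors, Cish at 38.9 and 49.3 CPM (0.34, 0.26 to 0.42) and Socs1 at 67.2 and 84.0 CPM (0.32, 0.26 to 0.38), and Socs1 stood at the limit of 25%. The kinase Jak1 (184 and 184 CPM), Ywhaz (414 and 407 CPM) and the kinase Pim1 (139 and 136 CPM) were the most abundant by the mean of both libraries. Of the 19 genes of the IL-33 receptor list all were compared and 0 were called, which at 3.51% and 1.1% of all genes is no result about the list, with a median of 0.060, among them Nfkb1 (126 and 123 CPM), Ikbkb (104 and 109 CPM) and Tab2 (81.2 and 83.9 CPM). Of the 8 ligands, Il3 and Il33 had 0 UMIs in both libraries, which allows up to 0.0516 and 0.0505 CPM, Csf2 had 12 and 13 UMIs, and only Il4 was compared, at 54.4 and 45.6 CPM (-0.26, -0.33 to -0.18).

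Genes of the mast cell and basophil list went both ways, with 14 of 22 compared, 3 higher, 2 lower and a median of 0.088. Higher were Cyp11a1, the first enzyme of steroid synthesis, at 134 and 335 CPM (1.33, 1.29 to 1.36), Cpa3 at 101 and 190 CPM (0.92, 0.87 to 0.96) and the amine transporter Slc18a2 at 27.2 and 34.9 CPM (0.36, 0.27 to 0.46). Lower were the proteases Mcpt1, at 180 and 82.0 CPM (-1.14, -1.19 to -1.09), and Mcpt2, at 98.3 and 59.3 CPM (-0.73, -0.79 to -0.67). The most abundant were Srgn (1998 and 1915 CPM), Cma1 (460 and 542 CPM) and the histamine-forming enzyme Hdc (363 and 387 CPM). Of the lineage transcription factors, 13 of 20 were compared and 0 were called, again near the share of all genes, with a median of -0.063, Runx1 (567 and 539 CPM), Myb (237 and 226 CPM) and Gata2 being the most abundant. Of 58 interferon-stimulated genes 56 were in the files, 43 were compared and 37 were higher, with a median of 0.93, from Ifit1 (3.54), Oasl2 (3.49), Rtp4 (2.95), Irf7 (2.66), Isg15 and Oas2 (2.20) to 3 abundant ones, Ifi27l2a (104 and 247 CPM), Bst2 (141 and 254 CPM) and Ly6e (693 and 697 CPM), of which Ly6e was not called.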

How the data were processed

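Cells of 3 mice per group were pooled and captured with a droplet 3′ kit (10x Genomics V3). The authors made the deposited counts, UMIs per gene and cell barcode, with Cell Ranger 3.0.2 (file headers) against mm10; Seurat is named in the submitters' processing notes. No per-sample value column was left unused, and how multi-mapping reads were counted is not given in the sources used here.

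A barcode was kept if it had 500 or more genes and a mitochondrial share of UMIs of 10% or less. Scrublet's own threshold marked 0.131% and 0.176% of them, under the 0.5% set as a minimum, so cells above the 95th percentile of its score (325 and 333) were removed. UMIs were summed over kept cells as CPM. Intervals are 95%, exact Poisson for levels, exact conditional for ratios, Clopper-Pearson for shares and Koopman for share ratios, and cover counting error only. Shares were taken after thinning each cell to 3000 UMIs, which left out 457 and 350 shallower cells. Clusters were made with scanpy 1.11.5 and leidenalg 0.10.2 (2000 variable genes, 30 components, 20 neighbours, resolution 0.8, no batch correction). The scripts were tested on simulated data. Strata of Cpa3 were taken as 0, 1, 2 to 4 and 5 or more UMIs, and as 0 against more, since its quartile limits were all 0. Sequences were aligned with Biopython 1.88 and counted with Python 3.11.15, numpy 2.4.6 and scipy 1.17.1.

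Members and lists were chosen with earlier results of these data known. Named are the members, Usp18 and Isg15 as label checks, and of each list the called genes (at most 6) and the 3 most abundant. Also named are the 5 genes most like each member and 5 leading genes of clusters described. Cluster 5 and 8 leading genes beyond these and the single marker genes were named after their values were seen. So were Il1rap, Il5ra, Kit, Gata1, Cd34, Il3, Il33 and Csf2. Of 8 members, 7 had an entry in the RefSeq promoter table. Alternatives changed the filter, size factors, thinning depth, expression minimum, limit and clustering.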

Additional observations from a re-analysis of the deposited data

Results flagged for a closer look

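The 290 and 404 barcodes left out for more than 10% mitochondrial UMIs entered the comparisons above only in the setting with all deposited barcodes. By themselves, they had 5 members higher in the library labelled Usp18+/Δ with an interval above 0. The log2 ratios in these barcodes were 0.87 (0.58 to 1.16) for Fcer1a, 3.20 (0.44 to 8.61) for Fcer1g on 1 and 12 UMIs, 0.27 (0.041 to 0.499) for Csf2rb, 1.55 (0.21 to 3.14) for Csf2ra on 6 and 23 UMIs, and 0.22 (0.070 to 0.38) for Il1rl1. Csf2rb2 had 84.4 and 93.9 CPM there, a log2 ratio of 0.15 (-0.26 to 0.57).

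The direction of 3 members differed between clusters of at least 100 cells, and these differences were not tested. Fcer1a ranged from -0.24 in cluster 6 to 0.65 in cluster 1. Csf2rb ranged from -0.36 in cluster 5 to 0.69 in the shallow cluster 7, where the interval reached from -0.40 to 1.65. Csf2rb2 ranged from -0.25 in cluster 5 to 0.83 in cluster 2. In the highest cluster of the 3 other clusterings Csf2rb was lower in 1 and Csf2rb2 in 0. Fcer1a and Csf2rb were lower in 0 clusters at resolution 0.4 and with the members among the variable genes.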

How the results depend on the processing

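No paired analysis was possible because there was a single library in each group and no test. Of 455 values recomputed under alternatives, 323 stayed within their limit, 130 moved further and 2 reversed. The limit was the counting interval and, for counts, a change of 1.5 times. Medians over members or pairs were held against the medians of the interval limits. List medians, cluster spans and equal-share ratios under other clusterings were held against a fixed log2 difference. The cause of each move was not tested. With at most 5% mitochondrial UMIs the log2 ratios were 1.58 (Fcer1a), 0.14 (Ms4a2), 3.38 (Fcer1g), 1.23 (Csf2rb), 2.56 (Csf2rb2), 0.30 (Csf2ra) and 0.56 (Il1rl1). As means of per-cell CPM they were 0.84 for Fcer1a, -0.0028 for Ms4a2, 0.41 for Csf2rb and 0.14 for Il1rl1. With equal cluster shares they were 0.39 for Fcer1a, -0.087 for Ms4a2, 0.059 for Csf2rb, 0.15 for Csf2rb2 and -0.11 for Il1rl1, and that of Fcer1g reversed to -0.0054. Thinned cells gave 0.26 for Csf2rb and 0.72 for Csf2rb2. Without the 1% of cells richest in the member, Fcer1a had 0.66 and Csf2rb2 1.04; Fcer1g and Il3ra had no value. Of the alternatives chosen after seeing the data, which left out cluster 5, 7 or 8 or set shares equal under other clusterings, leaving out cluster 5 gave 0.36 for Fcer1a, 0.26 for Csf2rb and -0.071 for Il1rl1. The median log2 share ratio, 0.19, was 0.032 at 5000 UMIs, 0.49 for at least 2 UMIs and 0.58 with at most 5% mitochondrial UMIs. The number of members called, 3, ran from 2 to 4 where it was recomputed, and with equal cluster shares the ratios leave Fcer1a alone past the limit. Csf2rb was not called with median-of-ratios size factors, all deposited barcodes (0.31) or doublets kept (0.31). Genes called, 312 higher and 98 lower, became 1314 and 1219 with at most 5% mitochondrial UMIs, 705 and 230 from 1 CPM, 114 and 39 from 20 CPM, and 105 and 15 with a limit of 50%. Among the lists, genes called in IgE receptor signalling went from 1 to 3 (from 1 CPM), 0 (from 20 CPM) and 8 (at most 5%), other Fc receptors and partners from 2 to 0 (from 20 CPM) and 4 (at most 5%), and beta common receptor signalling from 2 to 1 (median-of-ratios) and 8 (at most 5%). At most 5% mitochondrial UMIs also gave 5 for IL-33 receptor signalling, 15 for mast cell and basophil genes and 1 for lineage factors, and 22 interferon genes, in place of 37, were called from 20 CPM. At resolution 0.4 the span between clusters was 2.12 for Fcer1a, against 2.90, and 5.83 for Csf2rb2, against 6.55 on 2 UMIs in cluster 7; Csf2ra had none, with a cluster at 0. Co-detection of Ms4a2 with Csf2rb2 in the library labelled Usp18+/Δ reversed to 0.98 without thinning. With 1 library per group, animals, capture and treatment cannot be told apart, and the depth limits statements on Fcer1g, Il3ra and Csf2ra.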

Other observations

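The members were also read in cells split by genes that differed between the libraries. Among thinned cells with at least 5 UMIs of the mast cell proteases Mcpt1 and Mcpt2, 333 and 151 cells, Fcer1a was at 443 and 923 CPM, a log2 ratio of 1.06 (0.92 to 1.20), and Il1rl1 at 1005 and 1370 CPM, a log2 ratio of 0.45 (0.34 to 0.55). Ms4a2 was at 767 and 775 CPM in these cells. Of them, 36.0% and 53.0% were in cluster 5. Among cells with 0 UMIs of both proteases, Csf2rb2 was at 16.1 and 38.9 CPM, a log2 ratio of 1.27 (1.15 to 1.39), and 2.40% and 7.57% of these cells were in cluster 5. Among the 119 and 353 cells with Cd34, a marker of progenitors, Csf2rb2 was at 45.6 and 97 CPM, a log2 ratio of 1.09 (0.64 to 1.57), and 11.8% and 31.4% of these cells were in cluster 5. Among cells with at least 5 UMIs of the protease Cpa3, 152 and 290 cells, Fcer1a was at 874 and 1199 CPM (0.46, 0.33 to 0.58). Csf2rb was at 770 and 662 CPM in them (-0.22, -0.37 to -0.072), and 48.7% and 74.1% of these cells were in cluster 5. With 1 Cpa3 UMI, Csf2rb was higher under the label Usp18+/Δ, at 259.5 and 346 CPM (0.42, 0.31 to 0.52). With 2 to 4 Cpa3 UMIs it was also higher, at 394 and 446 CPM (0.18, 0.051 to 0.31). Over all 976 and 1382 cells with Cpa3, Csf2rb was at 353 and 427 CPM (0.27, 0.20 to 0.35), with 18.65% and 36.8% of these cells in cluster 5. In cells with 0 Cpa3 UMIs, Fcer1a was at 137 and 181 CPM (0.40, 0.36 to 0.45) and Csf2rb at 186 and 222 CPM (0.25, 0.21 to 0.29), with 2.52% and 3.73% of the cells in cluster 5.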
